A study of Drosophila melanogaster with 6 samples.

Results

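On group averages of log2(value + 1), the 100 genes described here stood lower in all 5 Drosophila lines that expressed human AKT1 than without it. They were chosen by a rule on the deposited normalized counts. Of 17493 genes in the matrix, 7726 had a mean of at least 50 over the 18 libraries, and for each of these log2(value + 1) was averaged per group. The score of a gene was the average in the line without AKT1 minus the highest of the averages in the 5 AKT1 lines, and the 100 highest scores were kept. Since that contrast selected the members, its values are given as a description and no test was run on it. On plain means some members were higher in an AKT1 line than in the line without AKT1. Jon99Cii had a mean of 1024 without AKT1 and 1688 with wild-type AKT1. Mal-A1 had 151 without AKT1 and 279 with the T1 form.

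RNA was sequenced from ovarian follicle cells of 6 groups, with 3 libraries per group. All flies carried tj-GAL4, a driver that uses the traffic jam gene and is active in somatic cells of the ovary. LP was tj-GAL4 over the empty landing site of stock 24482, so it had no AKT1. That stock is mutant for y (y1) and w (w*) and bears the integrase transgene M{vas-int.Dm} at ZH-2A and the landing site M{3xP3-RFP.attP'} at ZH-51C. The other groups carried a UAS construct of human AKT1 with a 3xFLAG tag inserted at that site, either wild type (WT), with an in-frame tandem duplication in the pleckstrin homology domain (T1, T15 and T5, T15 having in addition a changed residue) or with the double substitution Q79K-W80R, written W80R-Q79K in the labels. Each library came from 30 pairs of ovaries of an individual cross. The ovaries were digested with trypsin and collagenase at 22 °C for 30 min and passed through a mesh, and no sort of the cells is described. The insertion, the expression of AKT1 and any other difference between LP and the lines made from it fall on the same libraries and cannot be told apart.

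AKT is the kinase that carries the signal of the insulin receptor through phosphoinositide 3-kinase to growth, metabolism and the transcription factor FOXO. Its pleckstrin homology domain binds phosphoinositides and holds the kinase inactive in the absence of a signal. Follicle cells form the epithelium around the germline cells of an egg chamber, pass from mitosis to endocycles, and secrete the eggshell.

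Per library, the deposited values added up to between 23.6 and 34.2 M. The sources do not give the reads behind a value, so no counting interval can be set on it. In each of the 18 libraries the 7 follicle cell markers were present, with a summed normalized count of 30973 to 49721, and so were the 12 measured germline markers (15560 to 39776), so the libraries also held germline transcripts. The germline sum was 30749 to 37843 in LP, above the 19777 to 25156.5 of T1 and the 15560 to 27825 of T15. It overlapped with LP in WT (20862 to 39776), T5 (21588 to 33291) and Q79K-W80R (27382 to 32713). The part of germline content in the scores was not tested. The summed normalized count of 8 muscle markers was 13325 in the second WT library and 2950 to 6725 in the others, and transcripts of the mitochondrial genome took 22.1% of that WT library and 2.77% to 12.4% of the others. The AKT1 transgene itself was not measured in these values, which are for fly genes.

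A positive score was found for 1454 of the 7726 genes (18.8%). Scores fell steeply from the top of the list. The highest was 5.45, 8 members scored at least 2, 22 at least 1, and 54 scored under 0.5. The last members inside the limit were pio (0.297), CG18273 (0.297), fs(1)M3 (0.296) and fzr (0.295), and the first genes outside were Sugb (0.295), CG2211 (0.294), CG17486 (0.294) and CG10254 (0.293), so rank 100 is no natural border. The members comprised 89 protein-coding genes, 8 noncoding RNAs, 1 pseudogene, 1 ribosomal RNA gene and 1 feature without annotation. The median over the members of the mean normalized count, which is not divided by gene length, was 275, against 887 for all 7726 genes.

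**Figure D1:**
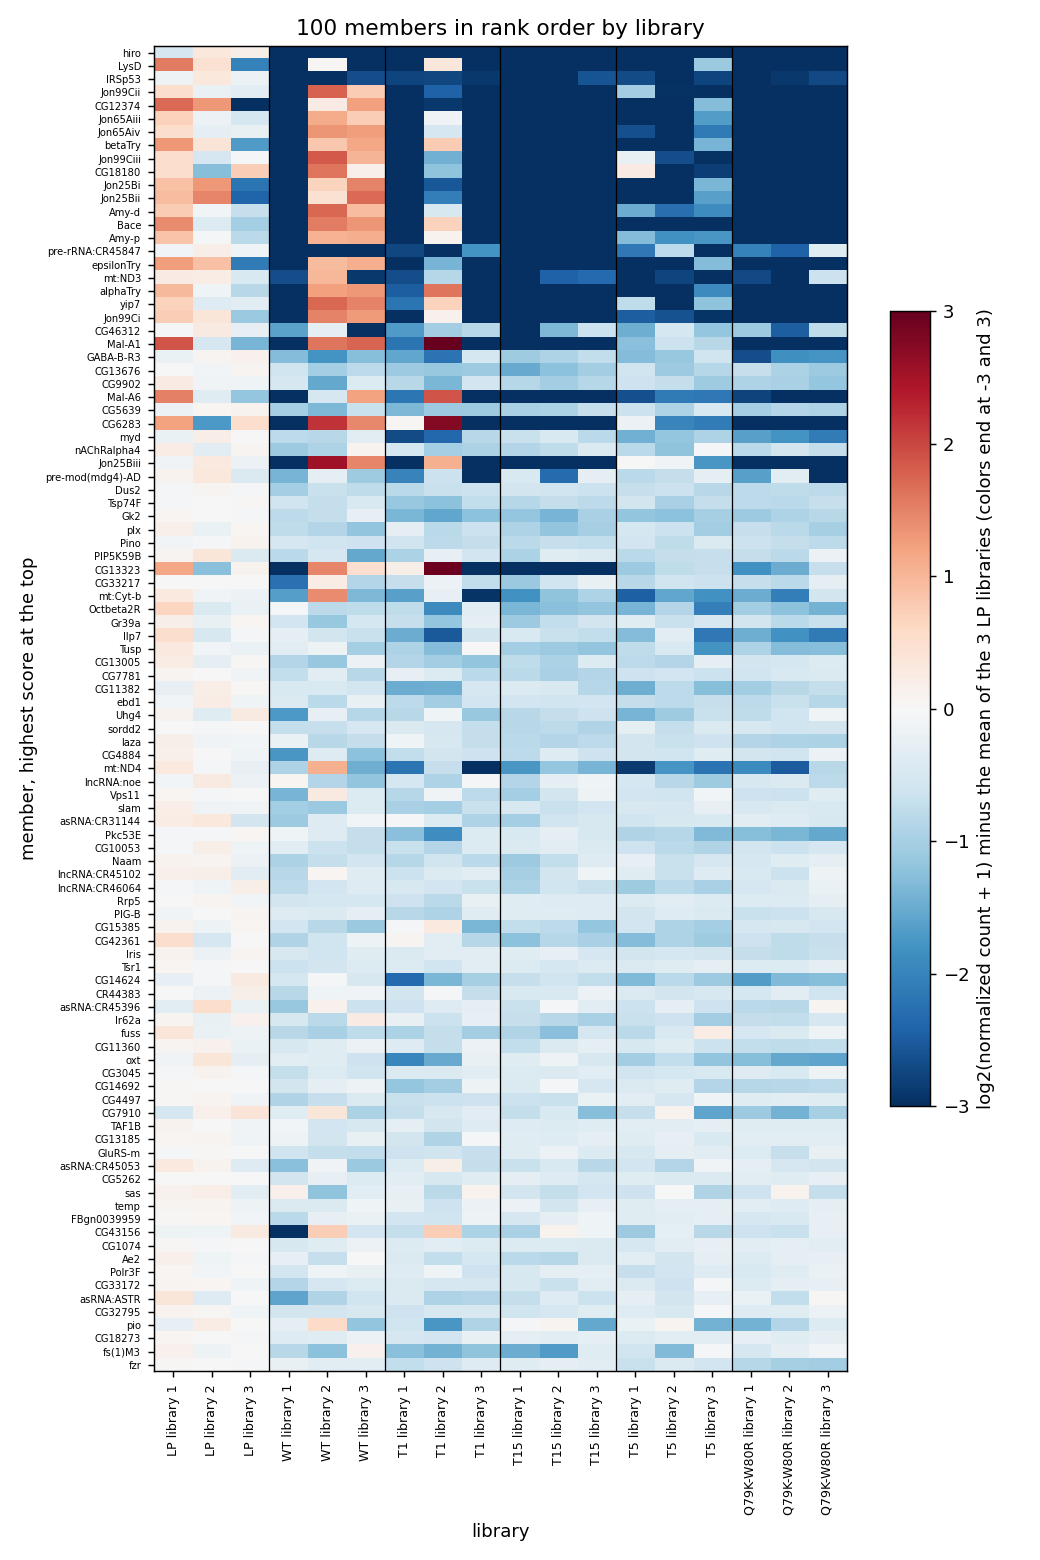
Each row is 1 of the 100 members in order of score and each column 1 library, and the color is log2(normalized count + 1) minus the mean of the 3 LP libraries, on a scale that ends at -3 and 3. Many of the upper rows, of digestive enzyme genes, are blue in some AKT1 libraries and red in the second and the third WT libraries, whereas hiro and IRSp53 are dark blue in all 15 AKT1 libraries.

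The members fell into unlike kinds. In 40 of the 100, every LP library lay above all 15 AKT1 libraries, and in the other 60 the groups overlapped. Among all 7726 genes, 1.95% had such a separation (151 genes), but the rule used this contrast and nothing is read from the difference. For 14 of the 60 only 1 AKT1 library reached the lowest LP library, and for 27 at least 1 AKT1 library exceeded the highest LP library. A second kind was formed by digestive enzyme genes, none of which separated the groups.

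The gene hiro led the list, with a score of 5.45. Its normalized counts were 757, 1345 and 1219.8 in the LP libraries. In the AKT1 lines they were 3.79, 86.2 and 34.9 in WT, 23.4, 17.6 and 8.67 in T1, 7.02, 18.2 and 18.3 in T15, 57.9, 11.9 and 3.31 in T5 and 20.5, 18.9 and 29.9 in Q79K-W80R. The LP libraries were thus all high and the 15 AKT1 libraries all low, and the lowest LP value was 8.78 times the highest AKT1 value. The mean was 1107 ± 309.7 (SD, n = 3) in LP and 24.03 ± 22.1 (SD, n = 15) over the AKT1 libraries, a ratio of 46.1. Among the 5 AKT1 lines the group means ran from 14.5 ± 6.47 in T15 to 41.6 ± 41.6 in WT (SD, n = 3 each), and limma gave an adjusted p of 0.909 for any difference among them. The rule favored genes whose AKT1 lines lie close together. Nothing is read from the lack of a called difference here or in the members below.

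On chromosome arm 3L, the annotation places ebd1 immediately next to hiro on the same strand. The product of ebd1 is a cofactor of Wnt-dependent transcription, and the gene was itself a member at rank 50. Its normalized counts were 1499.9, 1848 and 1457 in LP. In the AKT1 lines ebd1 had 1182, 907 and 1371 in WT, 919, 769 and 1062 in T1, 1062, 1045 and 1074 in T15, 971, 920.3 and 989.8 in T5 and 926, 1002 and 882 in Q79K-W80R. The LP libraries again lay above all others, but here by a mean ratio of only 1.59. The other genes around the pair had no score above 0. CG3386 had a mean of 231 in LP and 237 over the AKT1 libraries, RabX6 187 and 184, and Vti1a 353 and 346.

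IRSp53 encodes an I-BAR protein that bends membranes and links them to actin in cell protrusions. It was the only member among the 12 measured genes of a list on membrane curvature and actin protrusion. Its normalized counts were 396, 546 and 385 in LP. The AKT1 lines had 41.3, 52.9 and 67.7 in WT, 63.4, 65.3 and 57.8 in T1, 45.6, 50.1 and 71.95 in T15, 67.6, 39.3 and 63.7 in T5 and 49.99, 57.9 and 66.3 in Q79K-W80R. All 15 AKT1 libraries lay at 39.3 to 71.95, under the lowest LP library by a factor of 5.34, and the ratio of the means was 7.71. No difference among the AKT1 lines was called (adjusted p = 0.934, limma F test). Of its neighbors on the chromosome, Alg10 stood at a mean of 493 in LP and 378 over the AKT1 libraries with rank 192, and NaPi-III at 2471 and 2482.

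**Figure D2:**
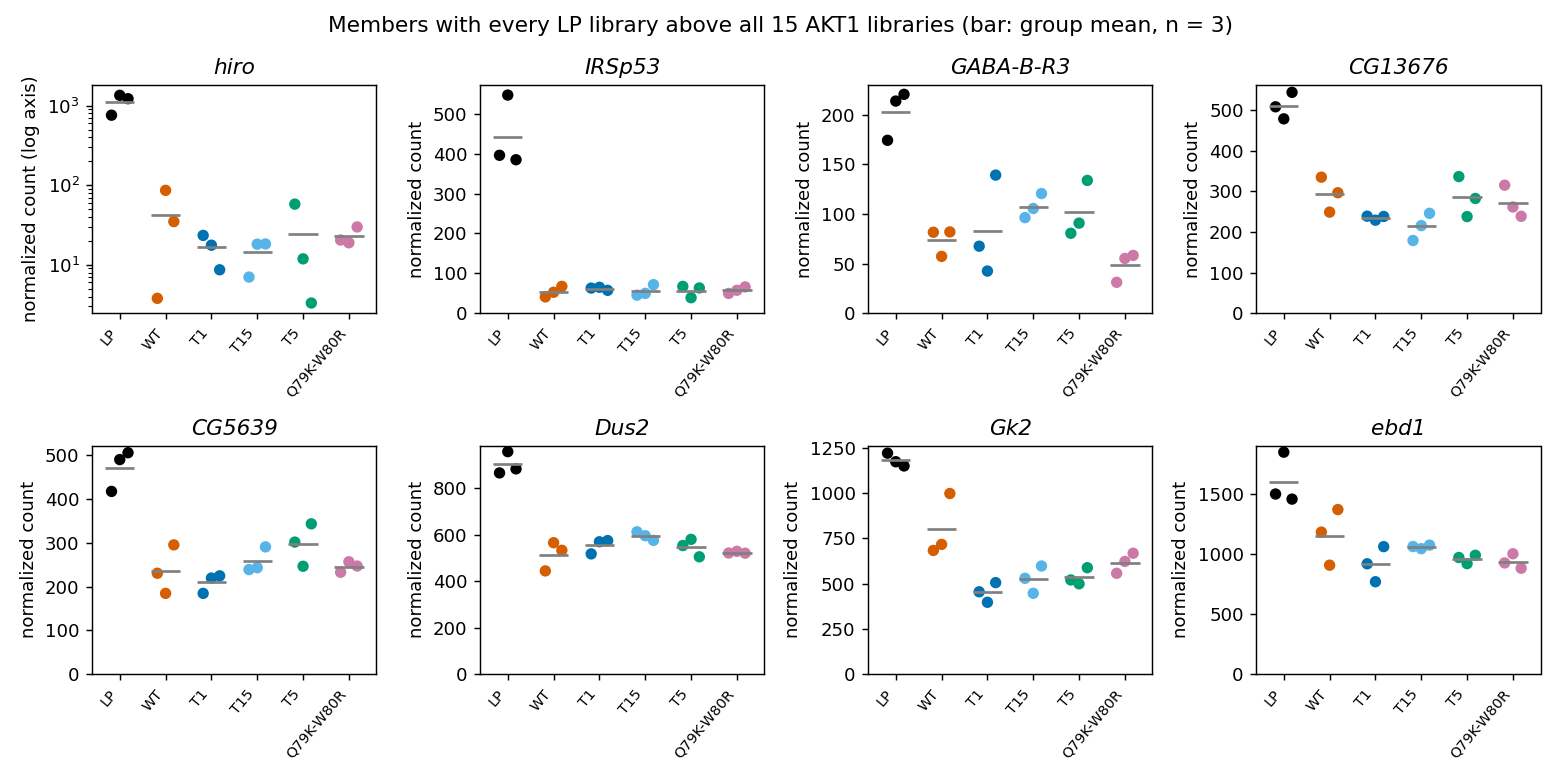
Normalized counts of 8 members, 1 point per library and a bar at each group mean (n = 3), on a log axis for hiro and on linear axes from 0 for the others. In every panel the 3 LP points stand above the 15 points of the AKT1 lines, widely for hiro and IRSp53 and by less for ebd1.

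After hiro and IRSp53, the gap between the lowest LP and the highest AKT1 library was 1.42-fold at most, and it was at least 1.2-fold in 9 of the 40 separated members. CG13676 had 508, 479 and 544 in LP and 179 to 337 in the AKT1 libraries. CG5639 had 418, 491 and 506 in LP and 185 to 344 in the AKT1 libraries. In both, all AKT1 values lay under all LP values, and no difference among the AKT1 lines was called (adjusted p = 0.19 and 0.249, limma F test).

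Dus2, which encodes a tRNA dihydrouridine synthase, had 867, 959 and 884 in LP and 445 to 613 in the AKT1 libraries. Tsp74F, a tetraspanin, had far higher normalized counts, with 5326, 5598 and 5649 in LP and 2350.4 to 4026 in the AKT1 libraries. Pino, in the same range, had 5843, 6035 and 6584 in LP and 3529.6 to 4574 in the AKT1 libraries. The LP libraries of these genes differed little from each other, and the ratio of the LP mean to the AKT1 mean was 1.65 for Dus2, 1.71 for Tsp74F and 1.58 for Pino. Over the 40 separated members the median of this ratio was 1.55, it was at least 1.5 in 26, and it was at least 2 in 7.

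A group of 6 members were receptors or secreted ligands best known from neurons, a group put together after their values were seen. GABA-B-R3, a metabotropic GABA receptor, had 174, 214 and 220.5 in LP and 31.3 to 139 in the AKT1 libraries, which do not overlap. Gr39a, a gustatory receptor, did not overlap either, with 306, 229 and 278 in LP and 119 to 219.6 in the AKT1 libraries. Of the others, the octopamine receptor Octbeta2R had 613, 289.8 and 340.0 in LP and 93.8 to 383 in the AKT1 libraries. Groups also overlapped for nAChRalpha4, a subunit of nicotinic acetylcholine receptors (211, 144 and 192 in LP, 77.9 to 193 in the AKT1 libraries), and for the ionotropic receptor Ir62a (134, 108 and 138 and 60.5 to 150.2). In the annotation nAChRalpha4 overlaps 19 genes on its own strand and 31 on the other, so which gene its reads came from is uncertain. The insulin-like peptide gene Ilp7 had 196, 97.3 and 132 in LP, and its values in the AKT1 lines follow below with those that differed between the lines. The scores of the 6 genes ranged from 0.35 to 0.91. The nerve marker list, 1 of whose 6 genes had a mean of at least 50, held no member, and its summed normalized count was 347 to 415 in LP and 334 to 571 in the AKT1 libraries, ranges that overlap.

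A further 6 members act in making ribosomes or transfer RNA or in transcription by RNA polymerases I and III, again grouped after their values were seen. Rrp5, needed for both ribosomal subunits, had 4676, 5006 and 4429 in LP and 2692 to 4032 in the AKT1 libraries. Tsr1, which matures the small subunit, had 5569, 5196 and 5264 in LP and 3391 to 4385 in the AKT1 libraries. The differences of both genes were small, with mean ratios of 1.35 and 1.35. Polr3F, a subunit of RNA polymerase III, had 331, 302 and 323 in LP and 195 to 292 in the AKT1 libraries, and GluRS-m, the mitochondrial glutamyl-tRNA synthetase, 192, 199 and 196 and 117 to 174. TAF1B, a factor of RNA polymerase I, overlapped, with 964, 915 and 836 in LP and 609 to 849.7 in the AKT1 libraries. When every library was rescaled to the same total, Rrp5, Tsr1, Polr3F, TAF1B and GluRS-m left the 100 genes, while Dus2 stayed.

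The ribosomal precursor pre-rRNA:CR45847 had 4107, 5026 and 3997 in LP. In the AKT1 lines the listed values were 0, 0 and 107 in WT, 653, 0 and 1263 in T1, 0, 0 and 351 in T15, 985, 2538 and 137 in T5 and 1062, 813 and 3386 in Q79K-W80R. It separated the groups, but the AKT1 lines ran from 0 to 3386, and the copies of the ribosomal RNA unit share their reads, so how the counting split them is uncertain. CG46312 overlaps another gene on its own strand and had 1306, 1622 and 1125 in LP and 70.9 to 1110.5 in the AKT1 libraries. The feature FBgn0039959, which the annotation does not name, had 7915, 8011 and 7334 in LP and 4402 to 7075 in the AKT1 libraries. Among all members, 22 overlap another gene on the same strand and 37 on the other strand. The share over all genes is not given here, so nothing about the members is read from these counts.

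Digestive enzyme genes were the largest group of like function. Of a list of 9 midgut digestive enzymes, 7 had a mean of at least 50 and all 7 were members. They were Jon99Ciii, Jon99Cii, Jon65Aiv and Jon25Bii (Jonah serine proteases), alphaTry and betaTry (trypsins) and Mal-A1 (a maltase). The list was chosen with earlier results of these data known, so nothing is read from this count. The mean log2 value of the list served to find genes of like pattern over the 15 AKT1 libraries. In 20 members the Pearson correlation with it was at least 0.8 (0.811 to a median of 0.945), the list's own genes included, and 37 of the 7726 genes (0.479%) reached this value. They included 17 of the 23 members with the highest scores. Among the additional ones were LysD, a lysozyme of the gut, the amylases Amy-p and Amy-d, the protease genes Jon65Aiii, Jon25Bi, Jon25Biii, Jon99Ci, epsilonTry and yip7, the aspartyl protease Bace, Mal-A6 and CG18180. CG12374, at rank 5, was just under the limit with a correlation of 0.742.

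The level of these genes varied widely between libraries of a single line. The summed normalized count of the 20 genes was 12293, 7074 and 5318 in the 3 LP libraries. In WT it was 16.6, 20905 and 15146. T1 had 558, 7677 and 24.1, and T15 had 20.1, 222 and 5.74. T5 had 3289.8, 1158 and 1708, and Q79K-W80R 19.0, 16.6 and 18.1. The second and the third WT libraries were thus above all LP libraries, while the first WT library, the third T1 library, the first and the third T15 library and all of Q79K-W80R were near 0. In libraries near 0, 16 to 20 of the 20 genes had a value of at most 3.

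**Figure D3:**
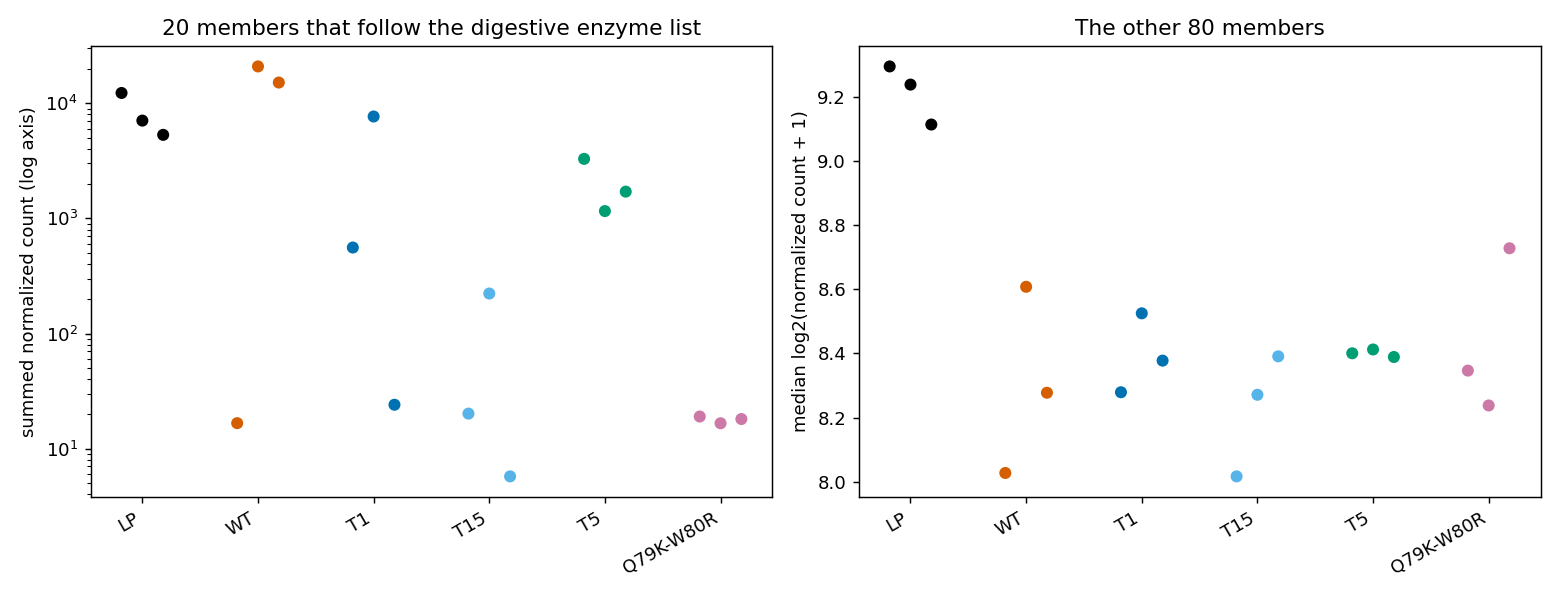
Left, the summed normalized count of the 20 digestive-enzyme-like members in each library on a log axis. Right, the median over the other 80 members of log2(normalized count + 1) on an axis that does not start at 0. The left panel spans 5.74 to 20905 with WT libraries both above and below LP, and in the right panel the LP libraries lie at 9.11 to 9.30 and the AKT1 libraries at 8.02 to 8.73.

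LysD had the highest score among them (3.21), with 491, 231 and 40.4 in LP. Its values were 1.35, 171 and 13.7 in WT, 0.901, 212 and 3.35 in T1, 0, 8.66 and 0 in T15, 0.883, 0.990 and 76.4 in T5 and 1.56, 0 and 0 in Q79K-W80R. The third LP library was below the second libraries of WT and T1, and the score ran from 1.74 without the first WT library to 4.22 without the third LP library. Jon99Cii had 1424, 856 and 793 in LP. Its AKT1 values were 0, 3397 and 1667 in WT, 28.8, 182 and 0 in T1, 0, 1.22 and 0 in T15, 476, 125 and 111 in T5 and 0, 0 and 0 in Q79K-W80R. WT held both the highest values of this gene and a listed 0. For Amy-p, an amylase, LP had 1275, 669 and 402, and the AKT1 lines had 1.27, 1446 and 1487 in WT, 87.2, 753 and 3.27 in T1, 3.03, 2.44 and 0 in T15, 283, 197 and 206 in T5 and 0, 0 and 0 in Q79K-W80R. The same split between the first WT library and the other 2 was seen in each of the 7 list genes that were members. Without the first WT library, 13 of the 23 named members whose score was recomputed turned negative, 12 of them among the 15 highest ranked, and 36 of the 100 genes left the list. The digestive enzyme genes belong to the gut, and in a bulk sample fewer cells of a type and less RNA per cell cannot be told apart. The part of gut tissue in their values was not tested, nor that of the muscle and mitochondrial transcripts that were high in the second WT library.

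The genes of this group lie in clusters. In gene order, 20 members had another member as a neighbor, in 8 runs, and 14 of the 20 were digestive-enzyme-like genes. The 100 genes chosen with a mean of at least 200 had 10 in such runs, and the 100 genes highest in all 5 AKT1 lines by the reverse rule had 15 in 7 runs. The digestive-enzyme-like runs were Jon25Biii, Jon25Bii and Jon25Bi on 2L, alphaTry, epsilonTry and betaTry on 2R, Amy-p and Amy-d on 2R, yip7, Jon65Aiv and Jon65Aiii on 3L, and Jon99Ciii, Jon99Cii and Jon99Ci on 3R. Members of such families are close copies and can share reads, so the split between them is uncertain. The other runs were ebd1 with hiro, CG14624 with CG11382 and CR44383 with sordd2. By chromosome arm, the members numbered 17 on X, 12 on 2L, 17 on 2R, 24 on 3L, 23 on 3R and 2 on 4. Of the 7726 genes, 17.2% lie on X, 17.5% on 2L, 20.2% on 2R, which holds the landing site, 19.2% on 3L, 24.1% on 3R and 0.841% on 4.

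Of the mitochondrial genome, 3 genes were members, of 14 with a mean of at least 50. The cytochrome b gene mt:Cyt-b, the member with the highest normalized counts, had 104106, 79199.7 and 75854 in LP. In the AKT1 lines it had 27127, 228712 and 33478 in WT, 27524, 72624 and 11193 in T1, 24365, 37278 and 44904 in T15, 15649, 29213 and 24249.8 in T5 and 30357, 20318 and 58011 in Q79K-W80R. The second WT library was above every LP library, and the other 14 AKT1 libraries were below all of them. For mt:ND4, a subunit of complex I, LP had 19454, 15130.1 and 13298 and the second WT library 33104, the other AKT1 libraries lying at or under 9723. The third gene, mt:ND3, likewise of complex I, had 1202, 1169 and 732 in LP and 2015 in the second WT library, with 29.8 to 641 in the others. All mitochondrial genes together took 9.42%, 7.49% and 10.4% of the LP libraries and 4.20%, 22.1% and 6.79% of the WT libraries, so the total did not separate the groups. The score of mt:Cyt-b was -0.033 without the first WT library, and that of mt:ND4 was -0.076 without the third WT library.

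Of 20 gene lists, 18 held no member. The members were 100 of 7726 genes, so lists as short as these would hold few or none. Nothing is read from an absence. No member was found among the 8 measured FOXO targets, the genes that FOXO switches on when AKT is inactive. Their summed normalized count was 20109 to 25110 in LP. It overlapped with LP in WT (20003 to 24543), T1 (20392 to 36503), T15 (17662 to 20582) and T5 (20203 to 28312). In Q79K-W80R it was 26880 to 28005, above all LP libraries, and this difference was not tested. Nor was any found among 6 NADPH-producing enzymes, 12 detoxification genes, 13 heat shock genes, 9 chorion genes, 7 vitelline membrane genes, or 14 genes of ecdysone synthesis and response. None of the 12 germline, 7 follicle cell, 8 muscle, 3 hemocyte and 6 fat body markers with a mean of at least 50 was a member.

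Differences among the AKT1 lines were tested in the 15 AKT1 libraries, without LP. The rule did not use the order of the 5 lines, but by taking the highest of them it favored genes whose lines lie close together, which bears on each count that follows. Between the 12 mutant libraries and the 3 WT libraries, all 100 members were tested and none was called, a call requiring an adjusted p under 0.05 and a change of at least 1.5-fold (limma on log2(value + 1), Benjamini-Hochberg adjustment). Over all 9605 genes tested, 1.29% were called higher and 1.02% lower in the mutants. At an unadjusted p under 0.05 there were 10 members and 21.3% of all genes. The Log2FC was negative in 64 members and positive in 36, with a median of -0.12, against 48.3% positive and a median of -0.01 over all genes. The digestive-enzyme-like members, high in the second and the third WT libraries, were all among the negative ones. Without the second WT library 2 members were called, CG4884 higher and Gk2 lower, and 1 was called without the third T15, the third T5 or the second or the third Q79K-W80R library. The counts over all genes in these settings are not given here.

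Gk2, a glycerol kinase, came nearest. Its normalized counts were 1221, 1173 and 1149.8 in LP and 683, 717 and 998 in WT. The mutants had 455, 397 and 505 in T1, 529, 447 and 597 in T15, 520.2, 499 and 588 in T5 and 557, 622 and 668 in Q79K-W80R. All 12 mutant values were thus under all WT values, which were under all LP values. The Log2FC of the mutants against WT was -0.58 ± 0.14 (SE), just under the limit of 1.5-fold, with an adjusted p of 0.0379. Next in the same direction were CG14624 (-0.83 ± 0.28 (SE), adjusted p = 0.108) and mt:ND4 (-1.44 ± 0.52 (SE), adjusted p = 0.131). In the opposite direction, CG4884 had a Log2FC of 0.58 ± 0.19 (SE) with an adjusted p of 0.0993, and asRNA:ASTR 0.53 ± 0.22 (SE) with 0.18. With single libraries left out, the Log2FC ran from -1.95 without the third WT library to -0.68 without the second for mt:ND4, from 0.26 without the first to 0.94 without the second for CG4884, and from 0.25 without the first to 0.75 without the third WT library for asRNA:ASTR.

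A limma F test for any difference among the 5 AKT1 lines called 3 of the 100 members, beside 11.7% of all genes tested. At an unadjusted p under 0.05 there were 18 members and 32.4% of all genes. The called members were fzr (adjusted p = 0.00521), Gk2 (0.028) and CG14624 (0.0437). The product of fzr activates the anaphase-promoting complex and brings follicle cells from mitosis into endocycles. Its normalized counts were 2283, 2225 and 2169 in LP. In the AKT1 lines fzr had 1899, 1774 and 1769 in WT, 1341, 1440.2 and 1714 in T1, 1737, 1821 and 1799 in T15, 1411, 1648 and 1496 in T5 and 1231, 1119.6 and 1087 in Q79K-W80R. WT and T15 were close to each other, and all 3 Q79K-W80R libraries were under the other 15 libraries. CG14624 had 157, 182 and 224 in LP, and 128, 177 and 134 in WT, 36.04, 71.3 and 92.99 in T1, 114, 122 and 110.5 in T15, 73.8, 106 and 86.2 in T5 and 57.3, 74.1 and 75.9 in Q79K-W80R. Only the second WT library reached into the range of LP, and the T1, T5 and Q79K-W80R libraries were all under WT and T15. This count changed when single libraries were left out, and without the third T1 library 26 members were called. The count was 14 in the absence of the first WT library and 5 when either other T1 library was dropped. It was 1 without the first T15 library or without any single library of Q79K-W80R. The count of this test over all genes also moved with a library left out, by a range given in the closing section. It is not given for each library, so nothing about the members is read from these changes. A test over the 4 mutants, added after the data were seen, called 1 member, fzr, with an adjusted p of 0.0166, beside 2.69% of all genes.

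Each mutant was then compared with WT, 3 libraries against 3. In T1 none of 100 members was called, beside 0% of all genes, 5 members and 10.5% of all genes having an unadjusted p under 0.05. In T15 none of the 85 members tested was called, beside 0.315% (28 genes), with 8 members and 17.0% of all genes at an unadjusted p under 0.05. Libraries of WT and T15 with the same number had correlated deviations from the group means (0.260, 0.281 and 0.224), but no label pairs them. With the number as a replicate block 166 genes and again 0 members were called. In T5 none of 100 was called, beside 0.714%, with 9 members and 20.3% of all genes at an unadjusted p under 0.05. Q79K-W80R stood out in the number of genes called over the whole matrix (15.1%), and 7 of the 81 members tested were called there, 1 higher and 6 lower. At an unadjusted p under 0.05 there were 17 members and 35.3% of all genes. The filter on low values left out 19 members in Q79K-W80R, all of them digestive-enzyme-like, and 15 in T15, of which 12 were. With single libraries left out, 4 members were called in T1 without the third T1 library, 1 in T15 without the second WT library, 2 in T5 without the first WT or the second T5 library, and 11 in Q79K-W80R without the third WT library. The counts over all genes in these settings are not given here, so nothing about the members is read from them.

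**Figure D4:**
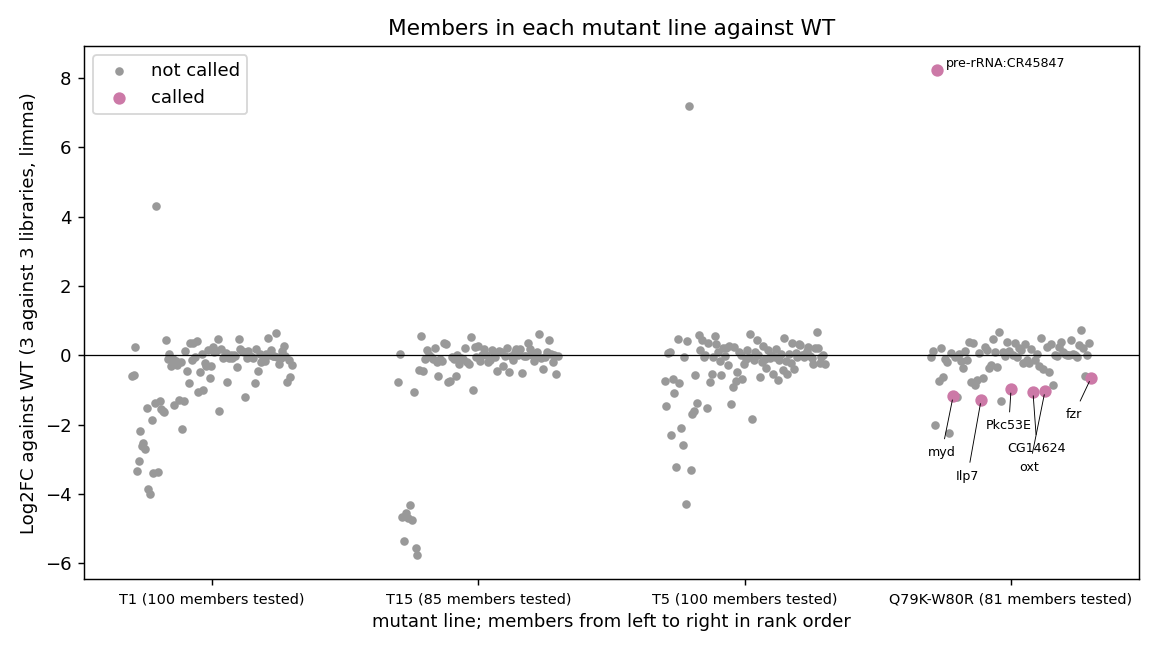
Log2FC of each tested member in each mutant line against WT, from left to right in rank order within a line. Colored points are called members and occur for Q79K-W80R, 6 between -1.29 and -0.66 and pre-rRNA:CR45847 at 8.23, while the low gray points at the left of T1, T15 and T5 are mostly digestive enzyme genes.

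The 6 members lower in Q79K-W80R than in WT were oxt, fzr, Pkc53E, Ilp7, myd and CG14624, of which Ilp7, Pkc53E and oxt are named because they were called, chosen after their values were seen. The gene oxt encodes the xylosyltransferase that starts glycosaminoglycan chains. Its normalized counts were 3315, 4549 and 2947 in LP, and 2848, 2751 and 2296 in WT, 918, 1236 and 3034 in T1, 2774, 3189 and 2526 in T15, 1709.8, 2130.0 and 1558 in T5 and 1452, 1214 and 1183 in Q79K-W80R. The Log2FC in Q79K-W80R was -1.04 ± 0.12 (SE) with an adjusted p of 0.00114 (limma), the smallest among the members. The first and second T1 libraries and all T5 libraries were also under WT, whereas the third T1 library was not.

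Pkc53E, a protein kinase C, had 788, 795 and 851 in LP, and 740.2, 617 and 496 in WT, 338, 221 and 607 in T1, 593, 668 and 581 in T15, 435, 446 and 325 in T5 and 332, 311 and 281 in Q79K-W80R. Its Log2FC in Q79K-W80R was -0.99 ± 0.16 (SE), adjusted p = 0.00482. Ilp7 in the AKT1 lines had 111, 92.4 and 84.8 in WT, 47.8, 22.8 and 92.5 in T1, 99.8, 85.05 and 81.4 in T15, 54.4, 109 and 29.8 in T5 and 48.7, 37.8 and 30.6 in Q79K-W80R, with a Log2FC in Q79K-W80R of -1.29 ± 0.23 (SE) and an adjusted p of 0.00777. In both genes the 3 Q79K-W80R libraries were below the 3 WT and the 3 T15 libraries. The values of myd were 110.2, 107 and 152 in WT and 61.4, 54.5 and 43.96 in Q79K-W80R (Log2FC -1.19 ± 0.22 (SE), adjusted p = 0.00827). In CG14624 the Log2FC was -1.07 ± 0.20 (SE) (adjusted p = 0.00925), and in fzr -0.66 ± 0.08 (SE) (adjusted p = 0.00157). The 1 higher member was pre-rRNA:CR45847 (adjusted p = 0.0151), in which 2 WT libraries were listed at 0, so the size of its fold change depends on the added 1.

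By group average of log2(value + 1), WT was the highest of the 5 AKT1 lines in 41 members, T5 in 20, Q79K-W80R in 16, T15 in 12 and T1 in 11. Over the 7726 genes WT was the highest in 22.2%, T15 in 28.3%, Q79K-W80R in 23.6%, T1 in 14.7% and T5 in 11.1%. Among the 80 members outside the digestive-enzyme-like group, WT was the highest in 26. The lowest line was Q79K-W80R in 30 members, T1 in 23, T15 in 19, WT in 16 and T5 in 12. Over the 7726 genes it was Q79K-W80R in 22.6%, T1 in 16.3%, T15 in 23.2%, WT in 23.8% and T5 in 14.1%. Of the 30 members lowest in Q79K-W80R, 18 were digestive-enzyme-like, and among the other 80 members the lowest line was T1 in 23, T15 in 17, WT in 16, and Q79K-W80R and T5 in 12 each.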

How the data were processed

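The submitters' processing notes name bcl2fastq 2.18.0.12, Bowtie and RSEM 1.3.1, and the authors normalized the RSEM counts of all 18 libraries with DESeq2. The deposited signal is thus a normalized count per gene and not whole reads. Not given in the sources used here are the genome build, the Bowtie version and whether reads were counted by strand. Coordinates are therefore left out, and an annotation supplied gene names, chromosome arms and gene order (17372 of 17493 IDs matched). The third column of Q79K-W80R has the same line name as the other 2, on which its group rests.

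The members and lists were chosen with earlier results of these data known. Values were put on the scale log2(value + 1). Tests used limma 3.58.1 in R 4.3.3 (lmFit, eBayes with a trend) on the compared libraries alone, for genes that reached 10 in 3 or more of them, with Benjamini-Hochberg adjustment over all genes tested, and were tried on simulated data. Named genes are the 15 highest scores, the 8 highest means, those at the limit of the list, those with the smallest adjusted p, members of a list, neighbors in gene order and 8 more grouped by function. Others were chosen after their values were seen. Libraries of 2 groups with 1 number were correlated in their deviations from the group means, and only WT and T15 had all 3 above 0.1 (0.260, 0.281 and 0.224). The alternatives were other pseudocounts, filters, scalings and forms of the rule, no trend, a replicate block, and each library or mutant form left out. The plots were made in Python 3.11.15 with matplotlib 3.10.9. Promoter and protein sequences were not analysed here.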

Additional observations from a re-analysis of the deposited data

Results flagged for a closer look

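The gene fzr differed between the 4 mutant lines themselves, with an adjusted p of 0.0166 (limma F test in the fit of the 15 AKT1 libraries), which means that its difference from WT was not the same in every mutant. The Log2FC against WT was -0.66 ± 0.08 (SE) in Q79K-W80R, the lowest line in all 3 of its libraries. As a member fzr stood at rank 100, and it left the 100 genes in 13 of the 27 alternatives to the rule.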

How the results depend on the processing

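hiro, pre-rRNA:CR45847, CG13676, CG5639 and Gk2 stayed among the 100 genes in all 27 alternatives. Of the 100 members, 48 stayed with a mean of at least 10, 58 with a mean of at least 200, 64 with medians per group, 43 with LP set against the mean of the 5 lines and 36 with the lowest LP library set against the highest AKT1 library. With a library left out 64 to 96 stayed, the fewest without the first WT library, and 68 without the second LP library. The score of hiro ranged from 4.27 to 5.70 over all settings and that of IRSp53 from 2.63 to 2.89. Without the first WT library the score turned negative in 13 of 23 named members, which is the lower end of these ranges over left-out libraries: Jon99Cii -1.27 to 2.55, CG12374 -0.74 to 4.05, Jon65Aiii -0.92 to 2.85, Jon65Aiv -1.28 to 3.23, betaTry -0.99 to 3.75, Jon99Ciii -1.44 to 2.44, CG18180 -0.88 to 2.74, Jon25Bi -1.07 to 3.59, Jon25Bii -1.08 to 3.66, Amy-d -1.32 to 2.176, Bace -1.42 to 3.36, Amy-p -1.07 to 2.03 and mt:Cyt-b -0.033 to 1.31. In mt:ND4 the range was -0.076, without the third WT library, to 1.19.

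Between mutants and WT, 1 member was called with equal library totals, with T1 left out, with T15 left out and with the mean of the mutant group means, and 0 to 2 with a library left out, 2 without the second WT library. Among the 5 AKT1 lines, 5 were called with equal library totals and 5 with quantile normalization, 7 with a replicate block, 1 over the 4 mutants alone (chosen after seeing the data), and 1 to 26 with a library left out, 26 without the third T1 library and 14 without the first WT library. Over all genes this test called 1120 genes, 1840 with equal library totals, and 463 to 3631 with a library left out. In T1, 2 members were called in a fit of all 5 AKT1 lines, and 0 to 4 with a library left out. The ranges with a library left out were 0 to 1 in T15, 0 to 2 in T5 and 6 to 11 in Q79K-W80R. The replicate block moved no other count of members by over 1.5 times, and no label pairs libraries that share a number. The cause of these changes was not tested. For the test among the 5 lines, counts over all genes are given only with equal library totals and, as a range, with a library left out. For the other tests and settings of this section they are not given. Nothing about the members is therefore read from these changes. The depth behind each value is unknown, which limits the members with few reads most.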
